A study of Homo sapiens with 3 samples.

Results

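The extrinsic route to apoptosis begins at death receptors on the cell surface. Its 10 genes examined here are the ligand TNFSF10 (TRAIL), the TRAIL receptors TNFRSF10A, TNFRSF10B, TNFRSF10C and TNFRSF10D, the receptor FAS, the adaptor FADD, the initiator caspase genes CASP8 and CASP10, and their inhibitory relative CFLAR (c-FLIP). They were chosen by gene name, and all 10 were found among the 16662 genes of the deposited expression table. All 10 also averaged 1 CPM or more, a filter that 13879 genes passed. CPM, the read count scaled to a fixed library size, is given after a further scaling between libraries.

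The RNA came from H1975 cells, an established human lung adenocarcinoma line with mutant EGFR. The cells were transfected with a control siRNA (siNC) or with one of the differently numbered siRNAs against HHLA3 (siHHLA3-1 and siHHLA3-3). Transfection took place at about 70% confluency in medium lacking serum, which was replaced after 6 h by medium with 10% serum for a further 24 h. The labels name different media for growth and transfection, and give the source as tissue although the cells are a line. Each siRNA gave 1 library, so there were 3 libraries, no replicates and no test across conditions. The labels do not call the numbered siRNAs replicates of each other. Intervals are exact 95% intervals for counting error alone. RNA was taken from whole cultures, so a different share of cells expressing a gene and a different amount of RNA per cell cannot be told apart.

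In this pathway a trimeric ligand gathers its receptors, whose death domains recruit FADD. FADD in turn brings in caspase-8 and caspase-10, which activate one another when held close together and then cut the executioner caspases. CFLAR resembles these caspases but lacks their activity and takes their place in the complex. TNFRSF10C and TNFRSF10D bind TRAIL without passing on a full death signal and are called decoy receptors. TRAIL is also known as an interferon-inducible gene, and many epithelial tumour lines carry its receptors.

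The library totals lay between 26950852 and 35069930 reads. HHLA3 stood at 5.99 CPM with siNC (192 reads), 1.55 CPM with siHHLA3-1 (55 reads) and 0.735 CPM with siHHLA3-3 (20 reads), so the targeted gene was lower in both libraries labelled as knockdowns. Of 10 lung epithelial markers, 9 were listed, with a summed level of 4190 to 5338 CPM, mostly from keratins. With siNC, siHHLA3-1 and siHHLA3-3, NKX2-1 stood at 65.7, 72.0 and 35.0 CPM and NAPSA at 4.71, 5.27 and 3.78 CPM. MUC1, of the same list, was instead higher in both siHHLA3 libraries, at 12.9, 30.0 and 21.4 CPM. Of 10 leukocyte markers 2 were listed, with 10.9 to 13.3 CPM. The labels give each library a batch of its own, so siRNA and batch cannot be told apart. Whether counting used strand is not stated, so reads of a gene and of a gene opposite to it cannot be told apart.

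The promoter of TNFSF10 is shown first because this gene had the largest difference of the 10. RefSeq places the window on GRCh38.p14 at chr3:172523381-172523680, minus strand, with 250 bases before and 50 after the start of the transcript. Capitals mark matches to the core of the interferon-stimulated response element, the DNA site of interferon-activated STAT and IRF factors, searched as GAAANNGAA on both strands. Both matches lie on the strand opposite to the one printed, at bases 65 to 73 and 197 to 205 of the window.
TNFSF10 promoter: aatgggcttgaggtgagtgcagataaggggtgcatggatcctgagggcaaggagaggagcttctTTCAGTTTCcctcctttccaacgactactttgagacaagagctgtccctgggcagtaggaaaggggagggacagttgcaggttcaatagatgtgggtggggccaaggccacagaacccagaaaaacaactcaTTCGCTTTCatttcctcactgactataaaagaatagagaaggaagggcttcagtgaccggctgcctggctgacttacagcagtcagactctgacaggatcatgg

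At least 1 such match was found in 8.11% of 35116 promoter windows of the same length, and at least 2 in 0.701%. The TNFSF10 window held no match to the GAS site of STAT dimers (TTCNNNGAA, in 7.66% of windows), the GC box (GGGCGG, 45.0%), the FOXO site (TGTTTAC, 3.42%) or the C/EBP-ATF site (TGATGNAAN, 3.61%). Windows of the TRAIL receptor genes were left out, and none was found for CASP10. RefSeq windows were also searched for FAS, FADD, CASP8 and CFLAR. Of their 11 windows, 1 of CASP8 and 1 of CFLAR held a single match to the interferon element, and 1 of CASP8 held a match to the GAS site. A match describes letters in this window and does not show binding.

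TRAIL RNA differed between the libraries more than that of any of its partners. TNFSF10 stood at 3.02 CPM with siNC (97 reads, interval 2.45 to 3.69), 15.9 CPM with siHHLA3-1 (563 reads, 14.6 to 17.2) and 3.20 CPM with siHHLA3-3 (87 reads, 2.56 to 3.94). The siHHLA3-1 library was thus far above the others, whose intervals overlapped. The siHHLA3-1 library was 5.24-fold above siNC (4.22 to 6.57). With siHHLA3-3 the fold against siNC was 1.06 (0.782 to 1.43), and the level was 4.96-fold lower than with siHHLA3-1 (3.95 to 6.29). The gene lies on chromosome 3 at 172505508 to 172523507, minus strand, in GENCODE 29.

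Ratios were taken as log2 of CPM + 1, a scale that understates the differences of low genes. For TNFSF10 the ratio to siNC was 2.07 in the siHHLA3-1 library. That was the highest of the 13879 genes of at least 1 CPM. With siHHLA3-3 its ratio of 0.06 ranked 5602 from the top.

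Markers of other cell types were examined beside these values. Of 5 endothelial markers 2 were listed, with a summed level of 9.66 CPM in the control, 22.0 CPM after siHHLA3-1 and 5.00 CPM after siHHLA3-3, mainly from CDH5. Of 6 fibroblast markers 1 was listed, COL1A1, at 11.3, 24.5 and 10.9 CPM. These too were highest in the siHHLA3-1 library, and their part in the values of TNFSF10 was not tested.

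**Figure D1:**
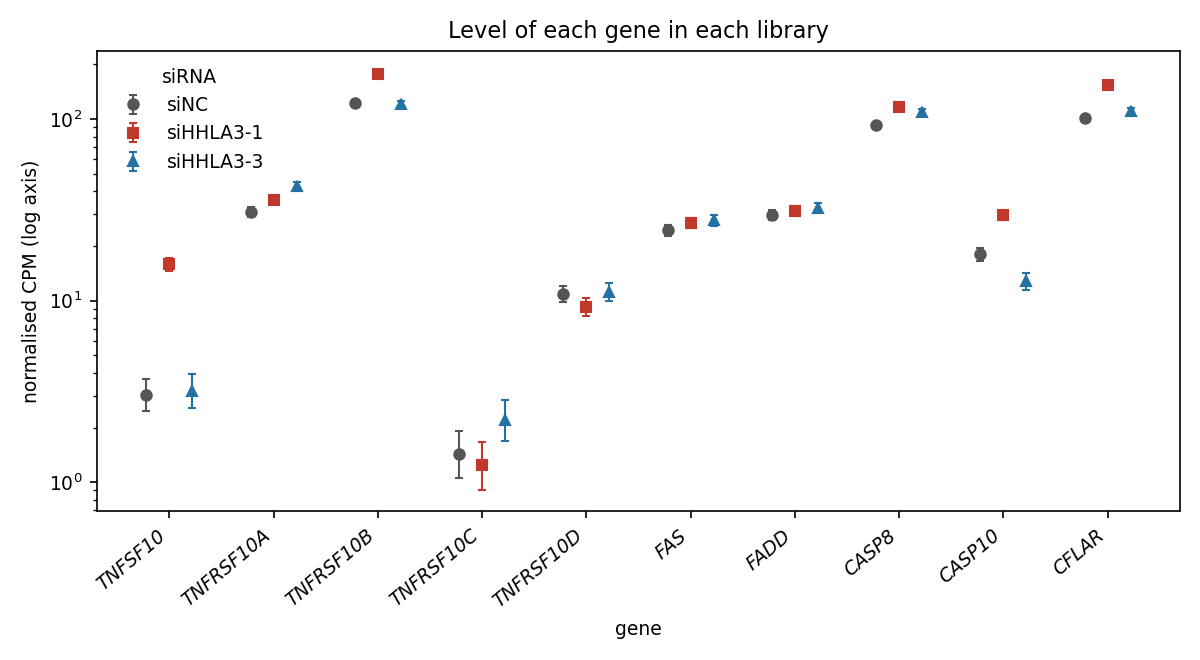
Level of each of the 10 genes in each library, in normalised CPM on a log axis. Points are single libraries (circles siNC, squares siHHLA3-1, triangles siHHLA3-3) and bars are 95% counting intervals. TNFSF10 with siHHLA3-1 (15.9 CPM) stands well above siNC (3.02 CPM) and siHHLA3-3 (3.20 CPM), while CASP10 is highest with siHHLA3-1 and lowest with siHHLA3-3.

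The genes whose levels over the 3 libraries were most like those of TNFSF10 were sought among 10829 genes of at least 5 CPM with a usual symbol, by distance between log2 profiles centred on their own means. They were, in order, TRIM22, U2AF1L5, ATG9B, IDO1 and GBP4, at distances of 0.114, 0.227, 0.442, 0.445 and 0.445. TRIM22, an antiviral protein, stood at 13.8 CPM in the control, 60.3 CPM after siHHLA3-1 and 15.9 CPM after siHHLA3-3. IDO1, the tryptophan-degrading dioxygenase, stood at 16.6, 48.4 and 11.9 CPM in the same order, and GBP4, a guanylate-binding protein, at 2.87, 10.0 and 2.98 CPM. ATG9B, an autophagy protein, stood at 37.7, 136 and 51.3 CPM. U2AF1L5 is a near-identical copy of another gene, so its value is uncertain. U2AF1L5 and GBP4 passed the 5 CPM filter only through the siHHLA3-1 library (4.76 and 2.92 CPM on average in the others), so the filter in part fixed their likeness to TNFSF10.

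Among the receptors that carry a death signal, TNFRSF10B was higher with siHHLA3-1 alone and TNFRSF10A was higher with both siRNAs. TNFRSF10B (DR5, a receptor gene known as a target of CHOP) stood at 123 CPM with siNC, 178 CPM with siHHLA3-1 and 121 CPM with siHHLA3-3. It was 1.45-fold higher with siHHLA3-1 (1.39 to 1.51), and its ratio with siHHLA3-3 was 0.989 (0.944 to 1.04). The siNC and siHHLA3-3 libraries overlapped and the siHHLA3-1 library lay above them, the siHHLA3-3 level being 1.47-fold lower than the siHHLA3-1 level (1.41 to 1.53).

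TNFRSF10A (DR4) stood at 30.9 CPM in the control and at 35.9 and 42.6 CPM after siHHLA3-1 and siHHLA3-3. The siHHLA3-1 library was 1.16-fold above the control (1.07 to 1.27). The siHHLA3-3 library was 1.38-fold above it (1.27 to 1.504). None of the 3 intervals of its level overlapped, and siHHLA3-3 was the highest. The paired receptors thus ordered the siHHLA3 libraries differently: the count ratio of TNFRSF10B to TNFRSF10A was 3.97 with siNC, 4.95 with siHHLA3-1 and 2.85 with siHHLA3-3. Relative to siNC, that ratio was 1.25 times as high with siHHLA3-1 (1.14 to 1.37) and 0.716 times as high with siHHLA3-3 (0.650 to 0.789). A ratio of genes within a library does not depend on the scaling between libraries. Genes on the opposite strand had few reads beside TNFRSF10A (TNFRSF10A-AS1 at 1.68 to 2.83 CPM, AC100861.1 at 2.03 to 3.05 CPM). RHOBTB2, opposite TNFRSF10B, stood at 20.7 CPM in the control, 16.5 CPM after siHHLA3-1 and 15.6 CPM after siHHLA3-3.

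FAS, the receptor for FAS ligand, stood at 24.4 CPM with siNC (784 reads), 26.7 CPM with siHHLA3-1 (947 reads) and 27.7 CPM with siHHLA3-3 (754 reads). Its folds were 1.09 (0.992 to 1.201) and 1.13 (1.02 to 1.25), and all 3 intervals of its level overlapped. The genes nearest to its profile by the same measure were RBM41, PNPLA6, NEURL4, TIMM8B and FLII, at distances of 0.00512 to 0.00772, so that many genes had a profile close to this nearly flat one. FAS lies on chromosome 10 at 88990582 to 89015785, plus strand, and ACTA2 on the opposite strand stood at 1.43 to 2.06 CPM. The gene for FAS ligand was not analysed here.

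The decoy receptors were low and did not follow TNFRSF10B. TNFRSF10D stood at 10.9 CPM in the control and at 9.24 and 11.1 CPM after siHHLA3-1 and siHHLA3-3, with folds of 0.849 (0.728 to 0.990) and 1.02 (0.874 to 1.197). The 3 intervals of its level overlapped. TNFRSF10C, which is anchored to the membrane by a lipid and lacks a cytoplasmic part, stood at 1.43 CPM (46 reads), 1.24 CPM (44 reads) and 2.20 CPM (60 reads). Its folds were 0.864 (0.558 to 1.34) and 1.54 (1.03 to 2.31), and its level in siNC overlapped that in either siHHLA3 library. The siHHLA3 libraries did not overlap each other, siHHLA3-3 being 1.78-fold above siHHLA3-1 (1.19 to 2.69). The TRAIL receptor genes are related copies within 1 cluster on chromosome 8 (TNFRSF10B at 23020133 to 23069179, TNFRSF10C at 23102590 to 23117437, TNFRSF10D at 23135588 to 23164030 and TNFRSF10A at 23190452 to 23225126, GENCODE 29). How reads matching several copies were treated is not stated, so the few TNFRSF10C reads are uncertain.

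Per length, on the authors' TPM scale, decoys made up 10.3% of the RNA of the TRAIL receptors with siNC, 6.67% with siHHLA3-1 and 10.6% with siHHLA3-3. TNFRSF10B alone made up 62.7%, 69.4% and 55.8%. The siHHLA3-1 library therefore held the lowest share of decoy RNA and the highest share of TNFRSF10B RNA.

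Downstream of the receptors, the adaptor differed little and the caspase family members differed more. FADD stood at 29.6 CPM with siNC, 31.2 CPM with siHHLA3-1 and 32.4 CPM with siHHLA3-3, with folds of 1.05 (0.965 to 1.15) and 1.10 (0.998 to 1.201). The 3 intervals of its level overlapped, and the gene lies on chromosome 11 at 70203163 to 70207390, plus strand.

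CFLAR, CASP10 and CASP8 lie side by side on chromosome 2. GENCODE 29 (GRCh38, whereas the submitters' notes name hg19) places CFLAR at chr2:201116104-201176687, CASP10 chr2:201182881-201229406 and CASP8 chr2:201233443-201287711. All are protein coding on the plus strand, with gaps of 6193 and 4036 bp between them. These neighbours did not share one pattern over the libraries.

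CASP8, the main initiator caspase of the death receptor complex, stood at 92.5 CPM with siNC, 116 CPM with siHHLA3-1 and 109 CPM with siHHLA3-3. The siHHLA3-1 library was 1.26-fold above the control (1.197 to 1.32) and the siHHLA3-3 library 1.18-fold above it (1.12 to 1.24). Both siHHLA3 libraries lay above siNC. Their intervals overlapped each other, while the direct fold put siHHLA3-3 1.06-fold below siHHLA3-1 (1.01 to 1.11).

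CASP10, the second initiator caspase, stood at 17.99 CPM with siNC (577 reads), 29.4 CPM with siHHLA3-1 (1045 reads) and 12.8 CPM with siHHLA3-3 (349 reads). The siHHLA3-1 library was 1.64-fold above the control (1.48 to 1.81), and the level was 1.40-fold lower with siHHLA3-3 (1.23 to 1.61). No intervals of its level overlapped, and the siHHLA3 libraries lay on opposite sides of siNC. CASP10 was 2.30-fold lower with siHHLA3-3 than with siHHLA3-1 (2.03 to 2.60). The count ratio of CASP10 to CASP8 was 1.30 times the siNC value with siHHLA3-1 (1.16 to 1.46) and 0.603 times that value with siHHLA3-3 (0.523 to 0.695).

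CFLAR stood at 101 CPM with siNC, 155 CPM with siHHLA3-1 and 111 CPM with siHHLA3-3. The siHHLA3-1 library was 1.53-fold above the control (1.46 to 1.60) and the siHHLA3-3 library 1.10-fold above it (1.04 to 1.15), with no overlap among the 3 levels. The CFLAR to CASP8 count ratio was 1.09 with siNC, 1.33 with siHHLA3-1 and 1.01 with siHHLA3-3. It was 1.22 times the siNC value with siHHLA3-1 (1.14 to 1.30) and 0.927 times that value with siHHLA3-3 (0.863 to 0.995). Against CASP10 the order was different: the count ratio of CFLAR to CASP10 was 0.934 times the siNC value with siHHLA3-1 (0.836 to 1.04) and 1.54 times that value with siHHLA3-3 (1.33 to 1.77). The inhibitor was thus higher relative to CASP8 with siHHLA3-1, and higher relative to CASP10 with siHHLA3-3. CFLAR-AS1, on the opposite strand, had 36, 72 and 45 reads against 3244, 5488 and 3017 for CFLAR.

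**Figure D2:**
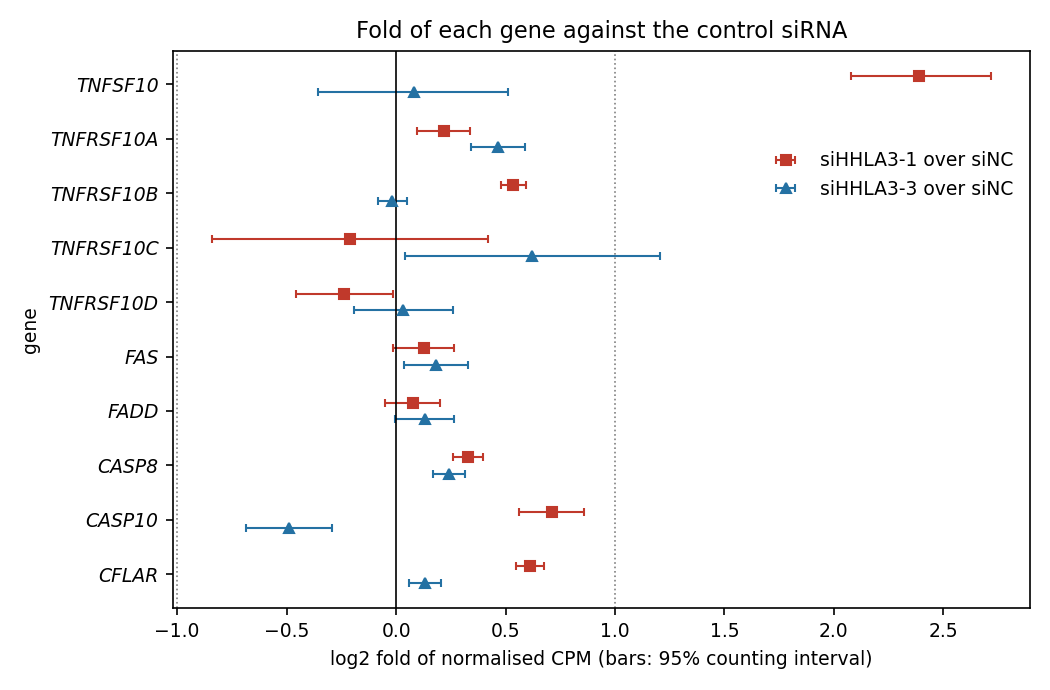
Log2 fold of normalised CPM against siNC for each of the 10 genes, with siHHLA3-1 (squares) and siHHLA3-3 (triangles). Bars are 95% counting intervals and dotted lines mark 2-fold. Only TNFSF10 with siHHLA3-1 (5.24-fold, 4.22 to 6.57) lies beyond 2-fold with its whole interval, and CASP10 lies above 0 with siHHLA3-1 and below 0 with siHHLA3-3.

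Levels of different genes can be compared per length only. In the authors' TPM with siNC the order was TNFRSF10B (83.7 TPM), FADD (59.2), CASP8 (43.7), TNFRSF10A (36.1), CFLAR (15.4), FAS (15.0), TNFRSF10D (10.5), CASP10 (8.11), TNFRSF10C (3.17) and TNFSF10 (3.01). Of these neighbours, CFLAR and FAS, and TNFRSF10C and TNFSF10, had overlapping counting intervals. The gene length behind the CFLAR value is 22479 bp, far above the other members, so its TPM counts reads over many bases that a given transcript may not hold. With siHHLA3-1, TNFSF10 reached 16.4 TPM, beside FAS at 17.0 TPM with an overlapping interval. The ratio of TNFSF10 to FAS in TPM was 0.201 with siNC, 0.964 with siHHLA3-1 and 0.187 with siHHLA3-3.

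Set against all genes of at least 1 CPM, the 10 genes stood as follows with siHHLA3-1. Of the 10, 1 (TNFSF10) was at least 2-fold higher than with siNC, where 0.973% of all genes were, and 0 were at least 2-fold lower (0.382% of all genes). At least 1.5-fold higher were TNFSF10, CASP10 and CFLAR, or 3 of 10, against 5.03% of all genes. Ratios above 0 were found for 8 of 10, against 48.2% of all genes, and the median ratio was 0.27 against -0.01.

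With siHHLA3-3, 0 of the 10 were at least 2-fold higher (0.807% of all genes) and 0 at least 2-fold lower (1.48%). Ratios above 0 were found for 8 of 10, against 48.5% of all genes, with a median of 0.13 against -0.01 for all genes. TNFRSF10B, at -0.02, had the other sign under 3 alternatives. The ratios ran from -0.46 for CASP10 to 0.45 for TNFRSF10A, all within the central 95% of all genes (-0.84 to 0.67). Both comparisons use the same siNC library, so their values are not independent of each other.

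Between the siHHLA3 libraries, 2 of the 10 were at least 2-fold lower with siHHLA3-3, namely TNFSF10 (ratio -2.01) and CASP10 (-1.14), against 2.12% of all genes. At the 1.5-fold threshold the same 2 genes passed, against 7.82% of all genes, and TNFRSF10B followed at -0.55. At least 2-fold higher were 0 of the 10 (0.757% of all genes). Ratios above 0 were found for 5 of 10, against 50.4% of all genes, TNFRSF10C being the highest at 0.52.

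**Figure D3:**
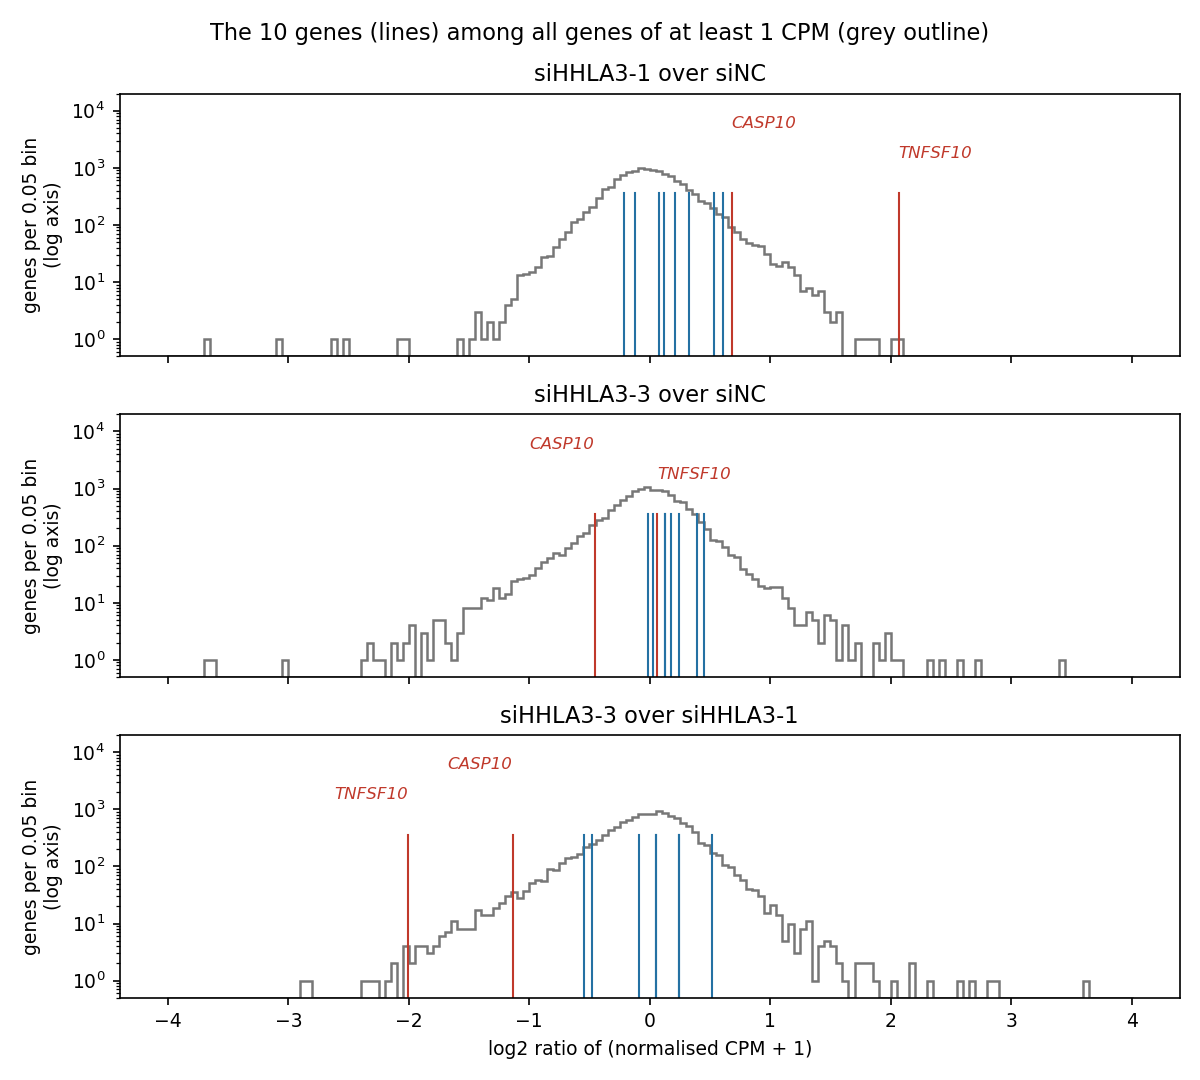
Log2 ratios of (normalised CPM + 1) for all 13879 genes of at least 1 CPM (grey outline, genes per bin on a log axis) and for the 10 genes (vertical lines) in each comparison. TNFSF10, at 2.07, is the rightmost gene with siHHLA3-1 over siNC, and both TNFSF10 and CASP10 lie in the left tail of siHHLA3-3 over siHHLA3-1.

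The 3' untranslated regions were searched for a pair of 7-base sequences, because carriers of them had lower ratios in an earlier scan of these same libraries. Since the sequences were chosen on these ratios, their carriage is a description and lends no independent support. CAGAATG had been linked to lower ratios with siHHLA3-1, and GTGAACT to lower ratios with siHHLA3-3. In GENCODE release 29, CAGAATG was found in 18.1% and GTGAACT in 12.3% of 11784 searched genes of at least 1 CPM.

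GTGAACT was carried by 5 of the 10 genes: TNFSF10, TNFRSF10B, TNFRSF10D, CASP10 and CFLAR. CAGAATG was carried by 1 of 10, CFLAR. Sites of TNFSF10, CASP10 and CFLAR are printed because these genes had the largest ratios with siHHLA3-1, with the 7 bases in capitals and in the sense of the transcript. On GRCh38 they lie at chr3:172506817-172506823 for TNFSF10 (minus strand), chr2:201219910-201219916 for CASP10, chr2:201154424-201154430 for the GTGAACT of CFLAR and chr2:201169922-201169928 for a CAGAATG of CFLAR.
TNFSF10: cttgaggaatgGTGAACTggtcatccatg
CASP10: acttcagccagGTGAACTggaatgccttg
CFLAR: gaagctgagcaGTGAACTacactcctacc
CFLAR, CAGAATG: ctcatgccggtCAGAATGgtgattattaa

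With siHHLA3-3 the 5 carriers of GTGAACT had a median ratio to siNC of 0.03 (-0.46 to 0.13), and the 5 genes without it had a median of 0.24 (0.13 to 0.45). With siHHLA3-1 the same groups had medians of 0.61 (-0.21 to 2.07) and 0.12 (-0.12 to 0.33). The carriers had longer 3' untranslated regions, 1222 to 12714 bp at their longest against 406 to 1335 bp, and longer regions hold more 7-base sequences. CFLAR, the carrier of CAGAATG, had a ratio of 0.61 with siHHLA3-1. The part of these sequences in the values was not tested.

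Other genes of the pathway were taken from 7 lists, which hold 106 genes, of which 85 were measured at 1 CPM or more. Over these 85 the median ratio was 0.09 with siHHLA3-1, with 53 above 0, and 0.04 with siHHLA3-3, with 47 above 0. The shares of all genes above 0 were 48.2% and 48.5%. In the siHHLA3-1 library 4 reached 2-fold above siNC, in the siHHLA3-3 library 2 did, and 0 reached 2-fold below it in either. Among all genes 0.973% and 0.807% were at least 2-fold higher, and 0.382% and 1.48% at least 2-fold lower. TNFSF13B, TNFRSF9 and STAT2 were among the 4, and DDIT3 was among the 2. The 4 became 3 with the deposited FPKM or after thinning to the smallest library, and 5 at a pseudocount of 0.1. The 2 became 3 at a pseudocount of 0.1.

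Among 5 measured ligands of the TNF family, TNFSF13B alone reached 2-fold above siNC, after siHHLA3-1. It passed the filter only through that library (0.344 CPM on average in the others), so it had to differ and its place in the counts supports nothing. TNFSF13B (BAFF, a B cell survival factor and also interferon-inducible) had 15 reads with siNC, 87 with siHHLA3-1 and 6 with siHHLA3-3, or 0.468, 2.45 and 0.2204 CPM. The siHHLA3-1 fold was 5.24 (3.01 to 9.76), and with the deposited FPKM it did not reach the 2-fold rule. CD70 went the other way, at 88.0, 50.4 and 73.2 CPM, and TNFSF12 and TNFSF13 stood at 1.04 to 1.69 CPM throughout.

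All 9 measured receptors of the TNF receptor family outside the 10 genes had ratios above 0 with siHHLA3-1 (median 0.45), under every scaling tried, and 6 of 9 with siHHLA3-3 (median 0.17). Among all genes 48.2% and 48.5% were above 0. With siHHLA3-1 the fold intervals of TNFRSF1A (1.01, 0.971 to 1.05) and TNFRSF1B (1.10, 0.848 to 1.42) included equality. Below 0 with siHHLA3-3 were TNFRSF21 (-0.78), TNFRSF1A (-0.48) and TNFRSF1B (-0.04). Of these, only the fold interval of TNFRSF1B included equality. TNFRSF9 (4-1BB, a costimulatory receptor) stood at 16.1 CPM in the control, 43.9 CPM after siHHLA3-1 and 16.6 CPM after siHHLA3-3. TNFRSF14, the receptor of LIGHT, stood at 8.04, 16.2 and 9.18 CPM, and the death domain receptor TNFRSF25 (DR3) at 16.3, 27.9 and 21.3 CPM. These 3 receptors were highest in the siHHLA3-1 library, as TNFSF10 and TNFRSF10B were. TNFRSF12A, the TWEAK receptor, was higher in both siHHLA3 libraries, at 256, 350 and 360 CPM.

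Of 17 adaptors and kinases, 11 had ratios above 0 with siHHLA3-1 (median 0.04) and 13 with siHHLA3-3 (median 0.12). The shares of all genes were 48.2% and 48.5%. On the log2(CPM + 1) scale 0 of the 17 reached 2-fold. RIPK2, a kinase of innate immune signalling, stood at 124, 212 and 182 CPM. MLKL, the executioner of necroptosis, stood at 65.8, 110 and 76.8 CPM, and its activating kinase RIPK3 was low, with 25, 76 and 52 reads, and reached 2-fold with both siRNAs at a pseudocount of 0.1. CRADD, an adaptor with a death domain, stood at 3.24, 2.62 and 1.76 CPM.

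Executioner caspases and the mitochondrial arm had medians of -0.09 with both siRNAs over 14 genes. Above 0 were 6 and 4 of these, against 48.2% and 48.5% of all genes. The count with siHHLA3-3 depended on scaling: it was 6 with library totals, 7 with TPM and 6 with FPKM. The median of all genes rose as well under these, to 0.03, 0.05 and 0.03. DFFA, the inhibitor of the apoptotic nuclease, had a ratio of -0.57 with siHHLA3-1, and PARP1, a substrate of executioner caspases, had one of -0.45, while APAF1 was at -0.13 with siHHLA3-1 and -0.45 with siHHLA3-3.

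**Figure D4:**
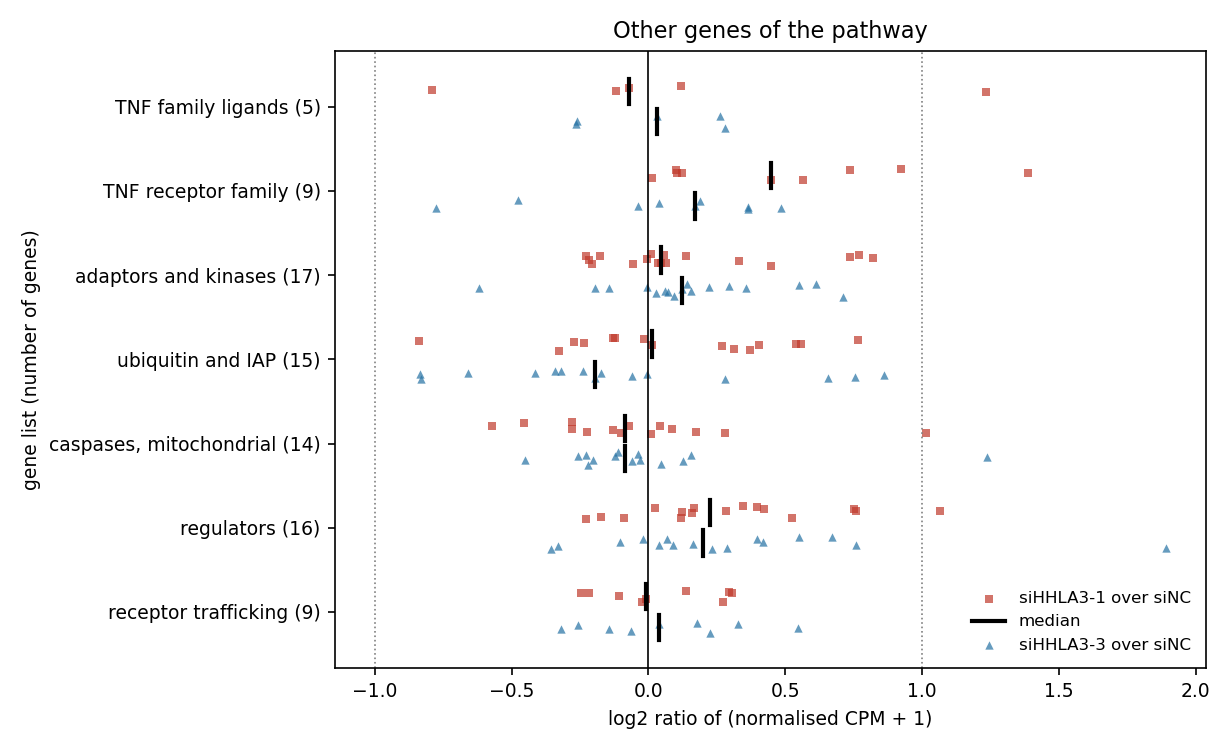
Log2 ratios to siNC of (normalised CPM + 1) for the measured genes of the 7 pathway lists, with siHHLA3-1 (squares) and siHHLA3-3 (triangles). Black ticks are list medians and dotted lines mark 2-fold. The TNF receptor family lies wholly above 0 with siHHLA3-1, and the rightmost triangle is DDIT3 at 1.89.

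Transcription factors known to act on death receptor or TRAIL genes had medians of 0.22 with siHHLA3-1 (13 of 16 above 0) and 0.20 with siHHLA3-3 (12 of 16). Above 0 among all genes were 48.2% and 48.5%. At least 2-fold higher was 1 of the 16 with siHHLA3-1 (STAT2) and 1 with siHHLA3-3 (DDIT3). The shares of all genes that far above siNC were 0.973% and 0.807%. STAT2 is a subunit of a factor known to bind the interferon-stimulated response element. It stood at 168 CPM in the control, 354 CPM after siHHLA3-1 and 268 CPM after siHHLA3-3. The part of STAT2 in the level of TNFSF10 was not tested. IRF7 stood at 131, 223 and 176 CPM. IRF1 had ratios of 0.75 and 0.07. DDIT3 (CHOP), known as an activator of TNFRSF10B, was highest with siHHLA3-3, at 14.4, 21.1 and 56.2 CPM. Its part in the level of TNFRSF10B was not tested. ATF4, the stress-response factor upstream of DDIT3, stood at 198, 252 and 335 CPM.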

How the data were processed

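Total RNA (1 ug per sample) of 3 H1975 cultures was sequenced, 1 library per siRNA. Per the submitters' processing notes, hg19 was the build, and the named programs are Bowtie2, HISAT, HISAT2 and TopHat2, without roles. Counting program, annotation and strand use: not given in the sources used here. Per the file headers, the authors deposited a count of whole reads for each gene. They also deposited CPM (these counts over each library's total, from which the totals were recovered), and TPM and FPKM, which the authors further divided by length. Every listed gene has FPKM values that sum to at least 1.00 over the libraries.

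Counts were scaled over the whole table with TMM factors (0.978 for siNC, 1.01 and 1.01) from edgeR 4.0.16 in R 4.3.3. Ratios are log2 of (CPM + 1) over (CPM + 1), genes of at least 1 CPM on average were kept, and folds are ratios of CPM with exact 95% binomial intervals. Levels have exact 95% Poisson intervals. With 1 library a group no test was made, and a size rule of 2-fold stood in its place. Alternatives were DESeq2 1.42.0 size factors, library totals, 0.1 as pseudocount, leaving out the filter, raising it to 5 CPM, the deposited TPM or FPKM, thinning to the smallest library and a 1.5-fold threshold. Named genes were the 10 genes, HHLA3, up to 4 genes per list by size of the mean ratio, and the 5 nearest profiles to TNFSF10 and FAS. IRF1, BIRC2, SPATA2, TNFRSF1A, TNFRSF1B, TNFRSF21, CDH5, COL1A1, NKX2-1, NAPSA, MUC1 and the genes on opposite strands were named after their values were seen. The genes and lists were chosen with earlier results of these data known. The RefSeq protein comparison that had been planned was not made. Other calculations used scipy 1.17.1, pandas 2.3.3 and numpy 2.4.6 under Python 3.11.15. The scaling, ratios and fold intervals of siHHLA3-1 over siNC were tried on simulated counts with counting error alone. That simulation held no differences between cultures and did not cover the other calculations. Some genes and 1 sequence are not reported here.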

Additional observations from a re-analysis of the deposited data

Results flagged for a closer look

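CASP10 stood apart because its difference from siNC had opposite directions with the siHHLA3 siRNAs, a log2 ratio of 0.68 with siHHLA3-1 and -0.46 with siHHLA3-3, and both counting intervals left out equality. Each direction rests on 1 library, so the difference between the siRNAs was not tested beyond counting error.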

How the results depend on the processing

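Across 30 ratios of the 10 genes and 8 alternatives to scaling, pseudocount, filter, unit or depth, 237 values were obtained. The 57 under another filter equal the main values by construction. Of the other 180, 176 lay within the main counting interval and 3 had the other sign, all TNFRSF10B with siHHLA3-3 over siNC (main -0.02, range -0.02 to 0.05). With a mean of 5 CPM, TNFRSF10C gave no value. TNFSF10 with siHHLA3-1 ranged from 1.61 to 2.35 and passed 2-fold throughout. CASP10 between the siHHLA3 libraries ranged from -1.19 to -0.86, so that with the deposited FPKM 1 gene, not 2, was at least 2-fold lower with siHHLA3-3. At the 1.5-fold threshold 3 genes, not 1, were higher with siHHLA3-1 than with siNC. The FPKM ratios also had 1 added before the log, which shrinks ratios more in this smaller unit. CASP10 stood at 3.93 FPKM with siHHLA3-1 and 1.71 FPKM with siHHLA3-3, against 29.4 and 12.8 CPM. The 1.5-fold rule is a lower bar than the 2-fold rule, so more genes can pass it. The other counts of the 10 genes at the 2-fold rule did not move under the alternatives run. No paired analysis was possible because each siRNA has 1 library. Differences between cultures could not be measured, and counts of 44 to 60 reads limit TNFRSF10C.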

Other observations

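Among 15 measured genes of ubiquitin control and the inhibitor of apoptosis family, the medians were 0.01 with siHHLA3-1 and -0.20 with siHHLA3-3. Above 0 were 8 and 4 of these, against 48.2% and 48.5% of all genes. The count with siHHLA3-3 was 5 with library totals, 6 with TPM and 5 with FPKM. TNFAIP3 (A20), which removes or edits ubiquitin chains on receptor complexes, stood at 49.3 CPM in the control, 84.7 CPM after siHHLA3-1 and 90.5 CPM after siHHLA3-3. RBCK1, a subunit of the linear ubiquitin ligase, stood at 171, 249 and 289 CPM, and BIRC3 (cIAP2) at 8.42, 10.7 and 13.8 CPM. These 3 genes were higher in both siHHLA3 libraries. BIRC5 (survivin), which is tied to mitosis, stood at 191, 107 and 162 CPM. Between the siHHLA3 libraries, 4 of the 85 pathway genes were at least 2-fold lower with siHHLA3-3, namely TNFSF13B, TNFRSF9, SPATA2 (-1.24) and BIRC2 (cIAP1, -1.03), against 2.12% of all genes. With the deposited FPKM 2 were, and TNFSF13B passed the filter only through the siHHLA3-1 library.

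Among 9 genes of receptor trafficking and modification, 0 reached 1.5-fold with either siRNA. Of the 13879 genes kept, 698 lay that far above siNC in the siHHLA3-1 library and 463 that far below it. In the siHHLA3-3 library these counts were 506 and 773. Such genes were a small part of the whole, so a count of 0 among 9 does not set this list apart. ARAP1 stood at 39.3, 38.7 and 57.8 CPM, GGA1 at 61.8, 74.8 and 77.9 CPM, PALM at 12.1, 15.1 and 14.3 CPM, and GALNT3, an enzyme of O-linked glycosylation, at 131, 110 and 109 CPM.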
